A study of Mus musculus with 6 samples.

Results

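Cytosolic ribosomal protein genes were taken as the gene symbols that begin with Rpl or Rps followed by a number and an optional short suffix, together with Rpsa, Rplp0, Rplp1 and Rplp2. Symbols that end in ps and a number, the usual mark of a pseudogene, were not taken. The rule used names and no measured value. It found 86 of the 23381 symbols in the table, 33 with small-subunit names and 53 with large-subunit names. In GENCODE M21, 82 of the 86 are protein-coding genes on 19 chromosomes, with coding sequences of 75 to 1257 bases and a median of 453. The other 4, Rps4l, Rps12l1, Rpl32l and Rpl6l, are annotated there as processed pseudogenes although their symbols do not say so.

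RNA was measured in 4T1 tumours, grown from a mouse mammary carcinoma line of Balb/c origin, in Balb/c mice. Mice aged 10 weeks were given 500000 of the 4T1 cells in the inguinal mammary fat pad. Tumour-bearing mice were then dosed 3 times a week over 3 weeks, 1 group with DMSO as the vehicle and the other with 2 mg of Vismodegib per mouse. Vismodegib is a small molecule that blocks Smoothened, the membrane protein through which Hedgehog signals pass, and the comparison asks how the RNA of the whole tumour differed under that block. There were 3 DMSO and 3 Vismodegib libraries. Whether every library comes from a different mouse is not said in the labels. The p-values treat the libraries as separate samples and cannot show whether they stand for separate mice. Both groups share the strain, the tumour line and the site. In whole tumours, fewer cells of a type and less RNA per cell cannot be told apart.

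A ribosome is built from ribosomal RNA and one copy of nearly every ribosomal protein. The small subunit reads the message and the large subunit joins the amino acids. Cells therefore make these proteins in matched amounts, and protein that is not built into a ribosome is degraded. Their mRNAs are among the most abundant in dividing cells. Many of them begin with a C and a run of pyrimidines, the TOP motif, through which mTOR and the RNA-binding protein Larp1 control their translation. The genes also have many processed pseudogenes, copies of their spliced mRNA that were inserted elsewhere in the genome.

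Values are RPKM, reads scaled by the length of the gene and the total of the library, so that levels can be compared between genes. Values of 3 libraries are always given in the order of replicates 1, 2 and 3. Library totals recovered from the steps between low values were 37500000, 34800000 and 40500000 reads for DMSO and 41600000, 42700000 and 58000000 for Vismodegib. Markers of epithelium and 4T1 carcinoma, 7 of 7 matched, summed to 1593 to 2751 RPKM, and none was listed at 0 in all libraries. One library stood apart for the ribosomal protein genes, DMSO replicate 2, in which 61 of the 83 that could be tested were at their highest. Differences between the groups are therefore given with and without it for most genes described singly. DMSO replicate 2 was picked from these same values. The members' median log2 difference, Vismodegib minus DMSO, was -0.04. It was 0.19 without DMSO replicate 2 and -0.23 without DMSO replicate 1.

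The TOP motif was looked for at the annotated starts, since it is the feature by which these mRNAs are controlled together. RefSeq promoters (build GRCm38.p6, 250 bases before to 50 after the start) were matched to 63 of the 86 members. A C at the start that opens a run of at least 5 pyrimidines was found in 14 of the 63 (22.2%) and in 3.0% of 26962 other genes. The windows below run from 30 bases before to 20 after the start, 5′ to 3′ on the gene's strand, with the run of pyrimidines in capitals. Of the 14 windows, 9 are shown, for members whose values are described further on. One of the 14, Rpl32l, is an annotated processed pseudogene.
Rps6, chr4:86857348-86857397, minus strand: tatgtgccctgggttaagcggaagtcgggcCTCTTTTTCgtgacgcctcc
Rpl28, chr7:4792935-4792984, plus strand: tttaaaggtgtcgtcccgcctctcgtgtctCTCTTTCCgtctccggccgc
Rpl38, chr11:114668550-114668599, plus strand: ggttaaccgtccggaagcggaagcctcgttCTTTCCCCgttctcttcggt
Rplp2, chr7:141447621-141447670, plus strand: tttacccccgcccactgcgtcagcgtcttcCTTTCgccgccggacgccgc
Rps27, chr3:90213629-90213678, minus strand: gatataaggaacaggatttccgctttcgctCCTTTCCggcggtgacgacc
Rps21, chr2:180257349-180257398, plus strand: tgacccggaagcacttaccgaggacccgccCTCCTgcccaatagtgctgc
Rpl35a, chr16:33056452-33056501, plus strand: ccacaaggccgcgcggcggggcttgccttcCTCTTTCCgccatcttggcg
Rps18, chr17:33955646-33955695, minus strand: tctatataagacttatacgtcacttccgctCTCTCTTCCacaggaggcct
Rpl32l, chr10:20208409-20208458, plus strand: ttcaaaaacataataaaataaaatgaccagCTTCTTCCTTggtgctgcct
The pseudogene Rpl32l opens with a run of 10 pyrimidines, Rps6 and Rps18 with runs of 9, Rpl28, Rpl35a and Rpl38 with runs of 8, and Rplp2 and Rps21 with the shortest run counted, 5. A run that starts 1 or more bases away from the annotated start is not counted.

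Short runs of letters were also counted over the whole 300-base promoters. CCGGAA, the core bound by ETS factors such as Gabpa, was present on either strand in 54.0% of the 63 promoters and in 16.6% of the others. CTTTCC, which can lie inside a TOP tract, was present on the plus strand in 41.3% and 16%. TATAAA, the TATA box, searched on both strands, was present in 12.7% and 15.7%. A match describes letters and does not show a binding site. Of the members tested between groups, the 13 with a pyrimidine run at the start had a median log2 difference of -0.0005 and the 48 with another start -0.05. Both medians were 0.20 without DMSO replicate 2.

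The ribosomal protein genes were highly expressed in all 6 libraries. The median of their mean levels was 583 RPKM, against 3.96 for all genes tested, and they held 38 of the 100 highest places in the table. Mean levels exceeded 1000 RPKM for 31 members, lay between 100 and 1000 for 43 and were below 100 for 12. Together the 86 genes held 23.9%, 26.5% and 22.5% of the RPKM sum in the DMSO libraries and 20.7%, 24.5% and 23.8% in the Vismodegib libraries. Small-subunit genes held 7.63% to 9.72% and large-subunit genes 13.1% to 16.8%. These shares overlapped between the groups. Within the set, mean levels ran from 0.154 RPKM for Rpl3l to 12811 for Rplp1.

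**Figure D1:**
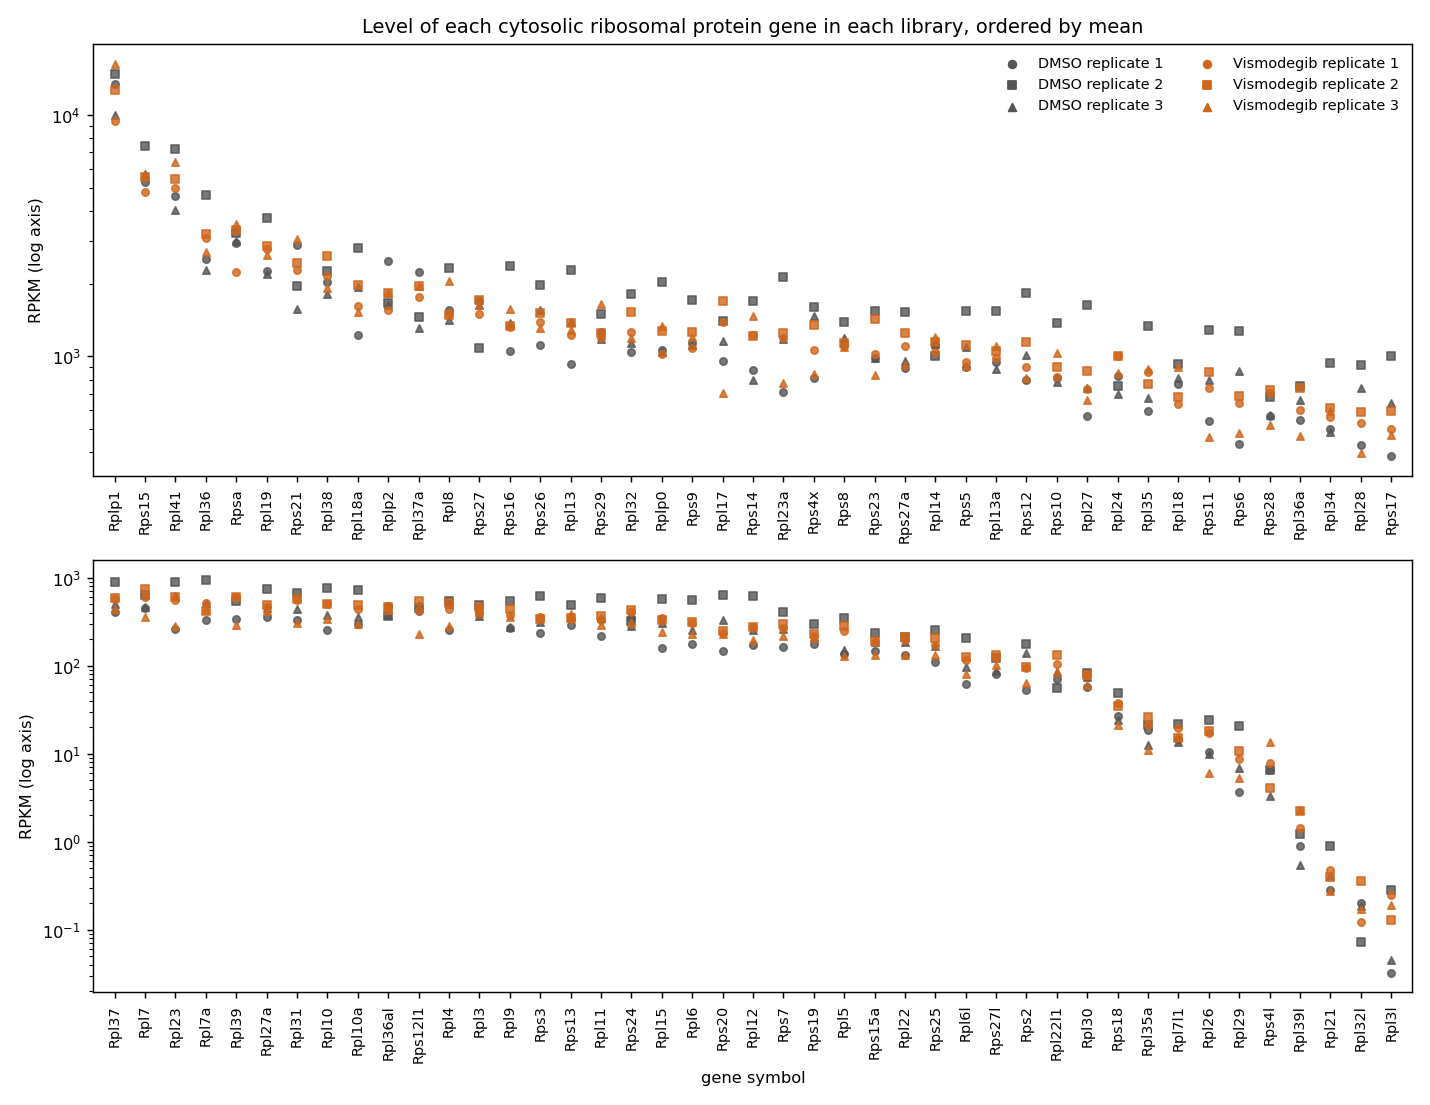
RPKM of each of the 86 ribosomal protein genes (log axis) in each of the 6 libraries, ordered by mean level, with DMSO in grey, Vismodegib in orange and 1 marker shape per replicate number. Rplp1 stands highest with a mean of 12811 RPKM, DMSO replicate 2 is the highest point for most genes, and the lowest 12 genes fall below 100 RPKM.

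Rplp1 was the highest row of the whole table. Together with Rplp2 and Rplp0 it forms the stalk of the large subunit that recruits the GTPases of translation. Rplp1 stood at 13437, 14856 and 9978 RPKM in DMSO and 9492, 12756 and 16349 in Vismodegib. Rplp2 stood at 2485, 1656 and 1629 RPKM in DMSO and 1556, 1822 and 1831 in Vismodegib, and was highest in DMSO replicate 1. Rplp0, the base of the stalk, stood at 1056, 2039 and 1045 RPKM in DMSO and 1022, 1272 and 1328 in Vismodegib. The 3 stalk genes thus did not share 1 order of libraries, and for each the ranges of the groups overlapped. Their log2 differences, Vismodegib minus DMSO, were -0.003 (SE 0.34) for Rplp1, -0.12 (SE 0.29) for Rplp2 and -0.13 (SE 0.34) for Rplp0. With DMSO replicate 2 left out they were 0.12, -0.22 and 0.19.

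The next levels belonged to Rps15, a protein of the head of the small subunit, and to Rpl41, the smallest ribosomal protein, with a coding sequence of 75 bases. Rps15 stood at 5262, 7472 and 5707 RPKM in DMSO and 4803, 5559 and 5608 in Vismodegib. Rpl41 stood at 4635, 7238 and 4037 RPKM in DMSO and 4988, 5409 and 6378 in Vismodegib. In both genes DMSO replicate 2 was the highest library, the ranges of the groups overlapped, and the log2 differences were -0.19 (SE 0.29) and 0.12 (SE 0.33), and -0.05 and 0.36 without DMSO replicate 2. The lowest tested members were Rpl39l, Rps4l and Rpl29, with means of 1.44, 6.90 and 9.27 RPKM. Rpl29, a large-subunit protein also known to bind heparan sulfate, stood at 3.70, 20.4 and 6.83 RPKM in DMSO and 8.65, 10.7 and 5.32 in Vismodegib, again highest in DMSO replicate 2. Rpl21, Rpl32l and Rpl3l were below the mean of 0.5 RPKM required for a test.

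Of the 10 protein-coding members under 100 RPKM, 6 had near-identical copies that together were listed higher. A coding sequence was aligned to all GENCODE transcripts, and a transcript of another gene with at least 95% identity over at least 80% of it was counted as a copy. Of the 82 protein-coding members, 76 had at least 1 copy, with a median of 5 and a highest number of 57 for Rpl21, and 75 had a copy listed in the table. In 11 the gene's own row was under the sum of its copies. Rpl21 had 0.455 RPKM in its own row against 1087 over 40 listed copies, of which Gm10240 held 743. Rpl26 had 14.3 against 1721, with 1715 in Gm15772. Rpl35a had 18.4 against 1626, Rpl29 had 9.27 against 487 and Rps2 had 103 against 3337, of which Rps2-ps10 held 3012. Rpl30, Rps18, Rpl9, Rpl7a, Rps12 and Rplp0 were the other 6. Annotated processed pseudogenes of 4 genes are set beside their parents here, because reads from either member of such a pair can be placed on the other. Each pair is a stretch of 90 bases of the coding sequence, 5′ to 3′, with the base that differs in capitals, and the coordinates are of the whole gene in GRCm38.
Rpl21, bases 316 to 405, chr5:146832890-146837032, plus strand: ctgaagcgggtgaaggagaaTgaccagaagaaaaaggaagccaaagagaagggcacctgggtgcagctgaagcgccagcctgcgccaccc
Gm10240, chr15:68309819-68310301, plus strand: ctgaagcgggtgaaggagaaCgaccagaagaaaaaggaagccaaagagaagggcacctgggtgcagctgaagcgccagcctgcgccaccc
Rpl26, bases 157 to 246, chr11:68901583-68906989, plus strand: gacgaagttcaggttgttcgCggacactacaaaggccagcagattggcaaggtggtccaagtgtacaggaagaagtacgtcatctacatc
Gm15772, chr5:3236431-3236868, plus strand: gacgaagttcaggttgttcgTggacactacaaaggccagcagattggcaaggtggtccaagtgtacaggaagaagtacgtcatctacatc
Rpl35a, bases 136 to 225, chr16:33056453-33060189, plus strand: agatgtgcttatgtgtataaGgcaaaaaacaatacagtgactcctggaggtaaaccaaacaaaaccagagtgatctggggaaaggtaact
Rpl35a-ps2, chr1:181241988-181242320, minus strand: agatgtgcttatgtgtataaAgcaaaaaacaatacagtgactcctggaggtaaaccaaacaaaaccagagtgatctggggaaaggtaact
Rpl29, bases 52 to 141, chr9:106429454-106431568, plus strand: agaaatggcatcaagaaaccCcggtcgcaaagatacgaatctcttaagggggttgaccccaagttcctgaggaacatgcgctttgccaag
Gm8210, chr1:43189156-43189638, plus strand: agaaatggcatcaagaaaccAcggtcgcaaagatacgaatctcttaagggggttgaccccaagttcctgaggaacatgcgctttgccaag
Over the whole coding sequence, Rpl21 and Gm10240 differed at 2 of 480 bases, Rpl26 and Gm15772 at 2 of 435, Rpl35a and Rpl35a-ps2 at 1 of 330, and Rpl29 and Gm8210 at 3 of 480. Pairs of 150-base reads that lie within the coding sequence and cover none of these positions match both genes. Bases outside the coding sequence were not compared. How such reads were assigned is not given in the sources used here, so the split between a member and its copies is uncertain for every member with a copy.

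**Figure D2:**
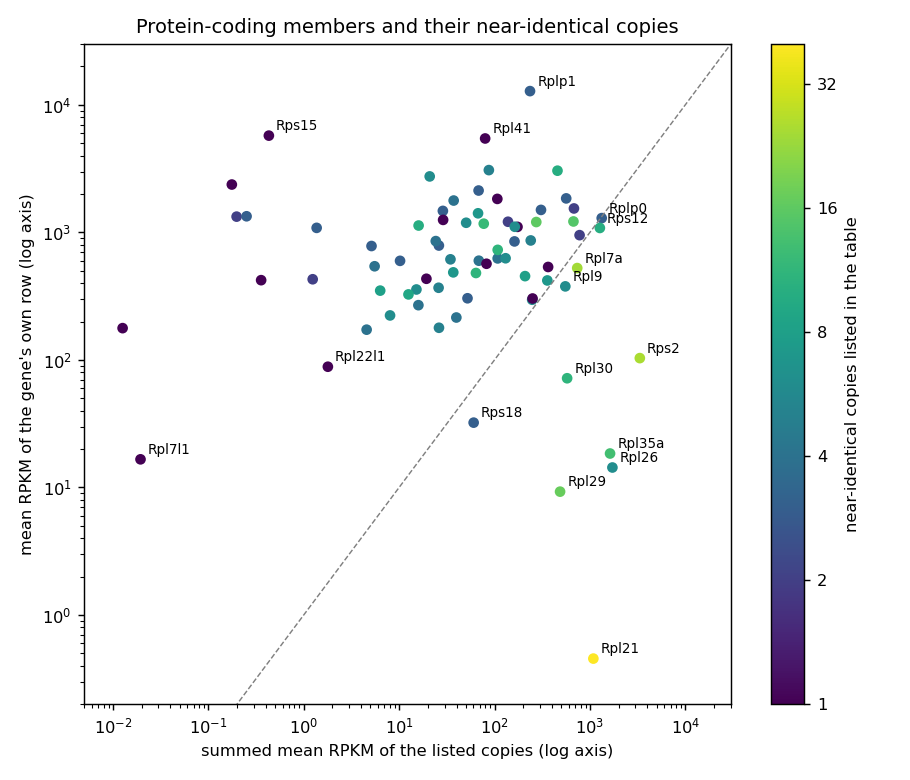
Mean RPKM of each protein-coding member's own row against the summed mean RPKM of its listed copies (both log axes), for the 75 members with a listed copy, coloured by the number of listed copies; the dashed line marks equal values. The 11 members below the line have more in their copies than in their own row, Rpl21 by the widest margin (0.455 against 1087 RPKM).

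With the copies added, fewer members were low. Of the 82 protein-coding members, 10 were under 100 RPKM by their own row and 5 after the copies were added, namely Rpl3l, Rpl39l, Rpl7l1, Rpl22l1 and Rps18. Of these 5, Rps18 is a core member of the small subunit, at 32.2 RPKM in its own row and 60.4 over its listed copies. Among the 17 members with 10 or more copies, the lowest level was 0.455 RPKM and the median 486 by their own rows, and 339 and 1147 with the copies added. The 6 members without a copy had a median of 238 RPKM either way. The copies together held 4.59%, 7.32% and 5.40% of the RPKM sum in the DMSO libraries and 5.06%, 5.89% and 4.65% in the Vismodegib libraries, highest in DMSO replicate 2 as were the members.

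No ribosomal protein gene differed between Vismodegib and DMSO past the threshold. Tests used limma on log2(RPKM + 0.5), a scale that understates the change of low genes, with Benjamini-Hochberg adjustment over the 11818 genes that averaged 0.5 RPKM or more, and a call at adjusted p under 0.05. Of 83 members tested 0 were called, where 0% of all genes tested were called. At an unadjusted p under 0.05, 1 member passed (Rpl39l), where 2.25% of all genes did. In 3 members, Rpl22l1, Rpl24 and Rpl39l, the groups did not overlap (3.61%), where 5.03% of all genes did not. Neither count stood above its background. With DMSO replicate 2 left out, 0 genes were called, 2 members and 289 of 11808 genes had an unadjusted p under 0.05, and the groups, then 2 against 3, did not overlap in 17 members (20.5%), where 13.7% of all genes did not.

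The median difference, Vismodegib minus DMSO, was -0.04 over the 83 members and 0.05 over all genes tested. Differences ran from -0.41 to 0.86, with 31 above 0 and 52 below (62.7% below, against 41.6% of all genes). With median-ratio scaling between libraries 65 were below 0 (78.3%, against 52.2% of all genes). Without DMSO replicate 2, 12 of the 83 were below 0 and the median was 0.19, without Vismodegib replicate 3 they were 34 and 0.07, and with limma's library weights 27 and 0.13, so the sign of the median depended on single libraries. Small-subunit genes had 10 above and 23 below 0 with a median of -0.06, and large-subunit genes 21 above and 29 below with -0.01, and without DMSO replicate 2 their medians were 0.12 and 0.21. The difference between the subunits was not tested. Over the 80 protein-coding members tested the median was -0.04, and with near-identical copies summed into each member it was -0.05 with 54 of 84 below 0.

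**Figure D3:**
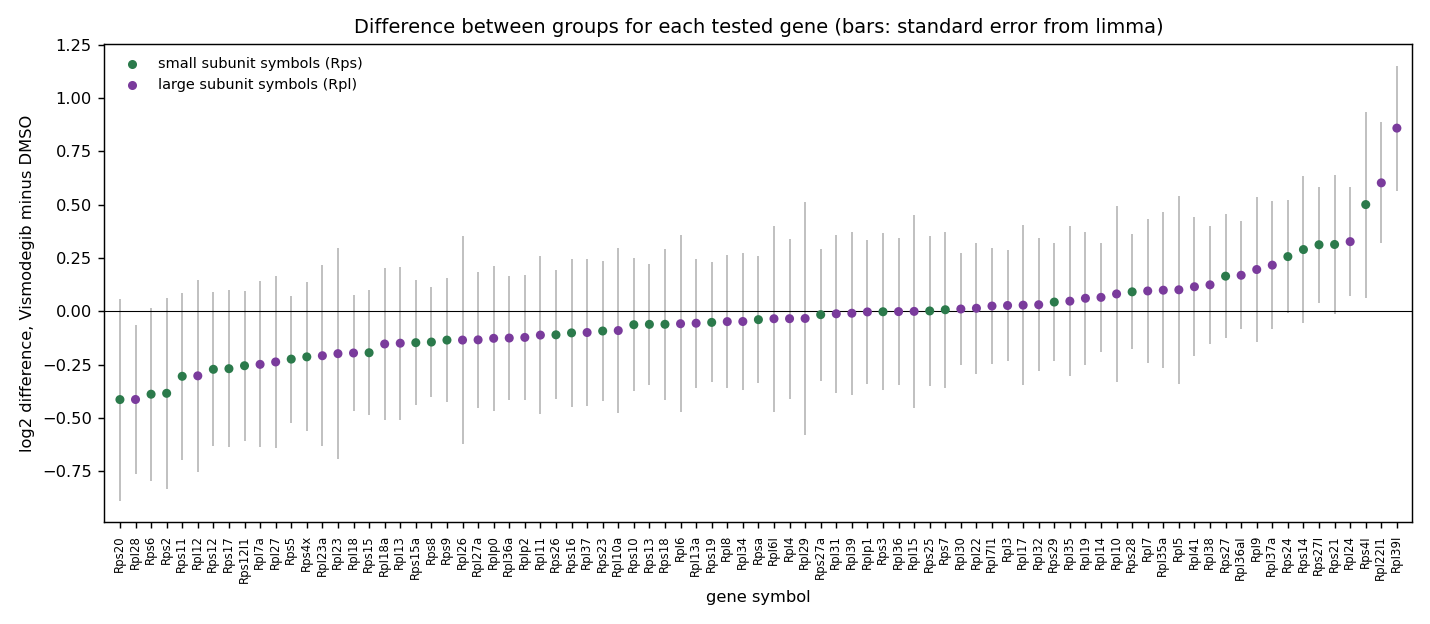
Log2 difference of Vismodegib minus DMSO (on log2(RPKM + 0.5)) for the 83 tested members in order of size, with the standard error from limma as bars, small-subunit symbols in green and large-subunit symbols in purple. Most bars cross 0, Rpl39l and Rpl22l1 lie at the right end (0.86 and 0.60), and the median of -0.04 turns to 0.19 without DMSO replicate 2.

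For most members the spread between DMSO libraries took in the Vismodegib values. The 3 Vismodegib values lay inside the range of the 3 DMSO values in 47 of 83 members (56.6%), against 35.0% of all genes tested. The median SD on the log2 scale was 0.45 in DMSO and 0.23 in Vismodegib for the members, and 0.38 and 0.28 for all genes. The DMSO SD was the larger in 63 members (75.9%), against 64.8% of all genes. Highly expressed genes shared part of this. Of the 512 genes averaging at least 100 RPKM, members included, 43.75% had the Vismodegib values inside the DMSO range. Their median SD was 0.44 in DMSO and 0.27 in Vismodegib, and the DMSO SD was the larger in 68.95%. The median DMSO SD without DMSO replicate 2 was 0.22 for the members and 0.29 for all genes. The DMSO SD was then the larger in 37 members (44.6%), against 50.5% of all genes.

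DMSO replicate 2 and DMSO replicate 1 formed the ends of that range. The members' median departure from each gene's own mean was -0.32, 0.48 and -0.13 on the log2 scale in the DMSO libraries and 0.02, 0.12 and -0.20 in the Vismodegib libraries. Over all genes tested it was -0.16, 0.04, 0.03, 0.18, 0.003 and -0.10 in the same order. Of the 83 members, 61 were at their highest in DMSO replicate 2, where 29.8% of all genes were, and 36 were at their lowest in DMSO replicate 1, where 31.7% of all genes were. Vismodegib replicates 2 and 3 held 11 and 7 of the members' highest values, where 7.2% and 12.9% of all genes were highest. DMSO replicate 1 held 3 (8.8% of all genes), Vismodegib replicate 1 held 1 (26.9%) and DMSO replicate 3 held 0 (14.4%).

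**Figure D4:**
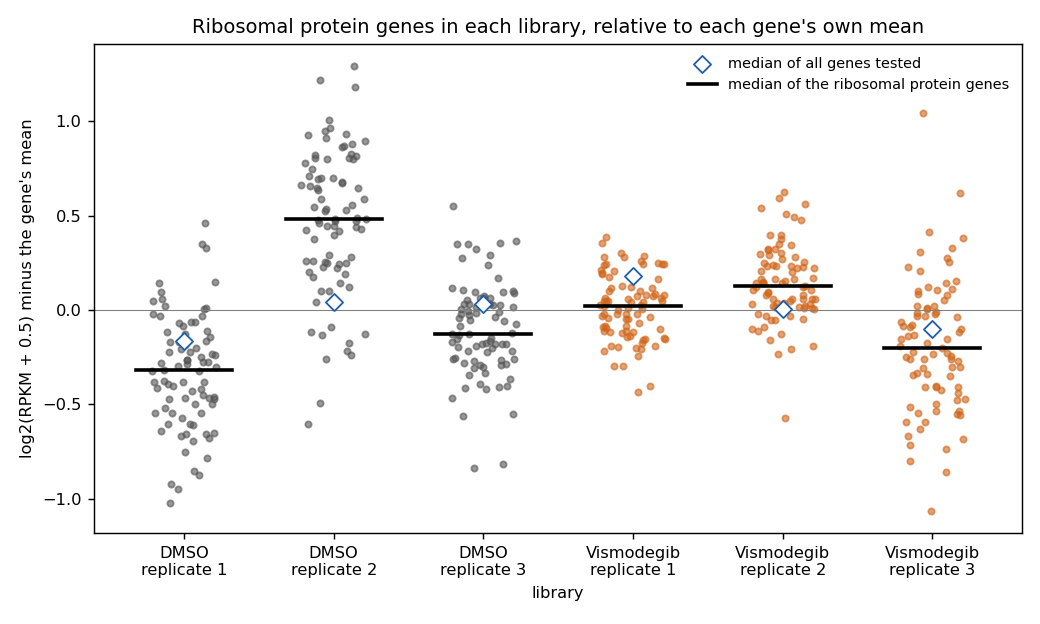
Log2(RPKM + 0.5) of each of the 83 tested members minus the gene's mean over the 6 libraries, by library, with the members' median as a black bar and the median of all genes tested as a blue diamond. DMSO replicate 2 has the highest member median (0.48, against 0.04 for all genes) and DMSO replicate 1 the lowest (-0.32, against -0.16), and the 3 Vismodegib medians lie between them.

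Between these DMSO libraries, replicate 2 over replicate 1, the median ratio of the members was 1.71, with 73 of 83 above 1, while the median of all genes was 1.18 with 59.5% above 1. The ratio ran from 0.642 for Rps27 to 5.51 for Rpl29. The RPKM values of all genes in DMSO replicate 2 summed to 1.33 times those of replicate 1, those of the members to 1.48 times, and the members' share of the sum was 1.11 times as large. With copies summed the median ratio over protein-coding members was 1.79, against 1.76 by their own rows. The members did not move as 1 block, since 10 of the 83 were lower in DMSO replicate 2. Rps27, Rpl37a, Rplp2 and Rps21 led these, with ratios of 0.642, 0.655, 0.667 and 0.676, and Rpl36al, Rpl22l1, Rpl24, Rpl14, Rps24 and Rps4l were the others. Of the 10, all but Rps4l are protein-coding, and the median coding sequence of these 9 was 345 bases, against 456 for the other 71 protein-coding members tested.

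Other measures moved across the same libraries. Summed mitochondrially encoded mRNA was lowest in DMSO replicate 2, at 9234, 4600 and 5617 RPKM in DMSO and 13670, 11900 and 7433 in Vismodegib. The macrophage markers, 5 of 5 matched, summed to 1918, 1056 and 1208 RPKM in DMSO and to 1442, 715 and 2485 in Vismodegib. Epithelial and carcinoma markers summed to 1593, 2471 and 2751 RPKM in DMSO, lowest in replicate 1, and to 2479 to 2595 in Vismodegib. The part of these in the ribosomal protein values was not tested. Spearman's rho was taken across the 80 protein-coding members, which share their libraries and are not independent replicates. For the departure in DMSO replicate 2 it was 0.38 with coding length, 0.075 with transcript length and 0.08 with transcript GC content. In Vismodegib replicates 1, 2 and 3, rho with GC content was -0.44, -0.42 and 0.32, and with mean level -0.60, -0.33 and 0.46. Over the tested genes with a known GC content, Pearson's correlation of the departure with GC content had the same signs in these libraries. It was -0.22, -0.35 and 0.29 in the Vismodegib libraries, and 0.21 in DMSO replicate 2.

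The members with the smallest p above 0 were Rpl39l, Rpl22l1, Rpl24 and Rps27l, and 3 of the 4 are paralogues of a core gene. Rpl39l encodes a protein that replaces Rpl39 in the ribosomes of male germ cells and is found in some tumours. It stood at 0.9, 1.21 and 0.535 RPKM in DMSO and 1.42, 2.25 and 2.30 in Vismodegib. All 3 Vismodegib libraries were above all 3 DMSO libraries, at 1.99 ± 0.498 against 0.881 ± 0.337 (SD, n = 3 each). The log2 difference was 0.86 (SE 0.29, 95% interval 0.19 to 1.53), which limma gave an unadjusted p of 0.0172 and an adjusted p of 1.0. Across the 18 alternatives the difference ran from 0.67, with DMSO replicate 3 left out, to 1.20, with library weights. Dropping DMSO replicate 2 gave 1.03, and removing the trend of GC content and length gave 0.67. Its limma unadjusted p was not under 0.05 with that trend removed, nor with DMSO replicate 3 or Vismodegib replicate 2 left out. Rpl39l was called with library weights alone, where limma gave an adjusted p of 0.0206. In that fit 420 of 11818 genes were called, and 1 of the 83 members. That fit gave DMSO replicate 3, the library lowest in Rpl39l, a weight of 7.275. The values rest on an estimated 17.5 to 108 reads per library, taken from the recovered totals and the longest annotated transcript, which limits their precision. The 4 matched markers of male germ cells, of 5 listed, were each under 0.5 RPKM on average and summed to 0.0921 to 0.804 RPKM.

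Rpl22l1 is the paralogue of Rpl22, and Rpl22 is known to hold down its expression. It stood at 70.4, 55.8 and 83.7 RPKM in DMSO and 105, 132 and 83.9 in Vismodegib. The groups did not overlap, by a margin of under 1 RPKM between DMSO replicate 3 and Vismodegib replicate 3. The log2 difference was 0.60 (SE 0.28, limma adjusted p = 1.0), and 0.45 without DMSO replicate 2. Rpl24, a late-joining protein of the large subunit, stood at 827, 749 and 696 RPKM in DMSO and 999, 1005 and 849 in Vismodegib. Its groups did not overlap either, with a log2 difference of 0.33 (SE 0.26, limma adjusted p = 1.0), and 0.32 without DMSO replicate 2. Rps27l, a paralogue of Rps27 and a known target of p53, stood at 80.8, 121 and 86.3 RPKM in DMSO and 122, 132 and 101 in Vismodegib, where the ranges overlapped and the difference was 0.31 (SE 0.27). That of Rps27l was 0.10 with the trend of GC content and length removed, 0.20 without DMSO replicate 1, 0.49 without DMSO replicate 2 and 0.52 with library weights. With the trend of GC content and length removed, Rpl22l1 had 0.475 and Rpl24 0.218.

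Below 0 the smallest p belonged to Rpl28, Rps6, Rps20 and Rps2, and each was highest in DMSO replicate 2. Rpl28, a large-subunit protein that budding yeast lacks, stood at 429, 918 and 738 RPKM in DMSO and 527, 588 and 396 in Vismodegib. Rps6, the small-subunit protein that S6 kinases phosphorylate downstream of mTOR, stood at 432, 1267 and 868 RPKM in DMSO and 640.2, 685 and 482 in Vismodegib. Rps20, of the head of the small subunit, stood at 148, 634 and 329 RPKM in DMSO and 236, 244 and 227 in Vismodegib, the widest DMSO range of the 4 as a ratio. Rps2, which lines the mRNA entry channel, stood at 52.3, 175 and 139 RPKM in DMSO and 93.3, 97.4 and 62.7 in Vismodegib by its own row. The Vismodegib values of Rps6, Rps20 and Rps2 lay inside the DMSO range, and those of Rpl28 reached just below it. Their log2 differences were -0.39, -0.41, -0.38 and -0.41 in the order Rps6, Rps20, Rps2 and Rpl28, with standard errors of 0.35 to 0.47 and a limma adjusted p of 1.0 for each. Without DMSO replicate 2 they were -0.04, 0.09, -0.04 and -0.18, so Rps20 turned to the other side of 0 and Rps6 and Rps2 came close to it. Without DMSO replicate 1 they were -0.82, -0.96, -0.91 and -0.73, none called, so that the size moved in both directions with the DMSO library left out. With its copies Rps2 summed to 1955, 5818 and 4008 RPKM in DMSO and 2954, 3233 and 2672 in Vismodegib, the same order of libraries at a higher level.

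Members with known roles outside the assembled ribosome were also followed. Rpl5 and Rpl11 form, with 5S rRNA, the particle that binds Mdm2 and stabilises p53 when ribosome assembly is disturbed. Rpl5 stood at 137, 349 and 150.3 RPKM in DMSO and 244, 281 and 129 in Vismodegib. Rpl11 stood at 218, 585 and 349 RPKM in DMSO and 334, 363 and 291 in Vismodegib. In both genes DMSO replicate 2 was the highest library, and in both the groups overlapped, with log2 differences of 0.10 (SE 0.44) and -0.11 (SE 0.37). These were 0.53 and 0.25 without DMSO replicate 2, and -0.15 and -0.46 without DMSO replicate 1, so the sign of both depended on the DMSO library left out.

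Rps19, the gene most often mutated in Diamond-Blackfan anaemia, stood at 176, 300.02 and 214 RPKM in DMSO and 217, 229 and 203 in Vismodegib. Rpl38, which is needed for the translation of a set of Hox mRNAs in the mouse embryo, stood at 2025, 2264 and 1811 RPKM in DMSO and 2149, 2597 and 1925 in Vismodegib. Rpl10a, of the stalk that guides transfer RNA out of the ribosome, stood at 298, 725 and 353 RPKM in DMSO and 441, 484 and 296 in Vismodegib. Rps19 and Rpl10a were again highest in DMSO replicate 2, while Rpl38 was highest in Vismodegib replicate 2. Their log2 differences were -0.05 (SE 0.28), 0.12 (SE 0.28) and -0.09 (SE 0.39). All 3 were above 0 without DMSO replicate 2, at 0.16, 0.20 and 0.30.

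Rpsa, also known as the laminin receptor, stood at 2945, 3235 and 2995 RPKM in DMSO and 2232, 3330.4 and 3535 in Vismodegib and was highest in Vismodegib replicate 3. Rps27a, made as a fusion with ubiquitin, stood at 893, 1521 and 959 RPKM in DMSO and 1100.3, 1249.9 and 916 in Vismodegib. Rpl13a, often used as a reference gene in PCR and part of a complex that silences translation after interferon, stood at 947, 1533 and 885 RPKM in DMSO and 984, 1053 and 1106 in Vismodegib. Each of these 3 differed by less than 2-fold between its lowest and its highest library, and in each the groups overlapped. Their log2 differences were -0.04, -0.02 and -0.06, with standard errors of 0.30, 0.31 and 0.30, and without DMSO replicate 2 they were 0.002, 0.22 and 0.19.

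Paralogue pairs were compared as ratios within a library, which do not depend on how libraries were scaled. The ratios were not recomputed with the trend of GC content and length removed. There were 10 pairs, of which 8 had both genes at a mean of at least 0.5 RPKM, and a two-sided exact permutation test of 3 against 3 cannot go below p = 0.1. Rpl22 stood at 131, 213 and 185 RPKM in DMSO and 195, 209.6 and 131 in Vismodegib with a log2 difference of 0.01 between the groups, and 0.16 without DMSO replicate 2. As a percentage of Rpl22, Rpl22l1 was 53.6%, 26.2% and 45.2% in DMSO and 54.0%, 62.7% and 64.2% in Vismodegib. The ratio was higher in all 3 Vismodegib libraries, by 0.59 on the log2 scale (exact permutation p = 0.1, adjusted p = 0.8 over 8 pairs), and by 0.29 without DMSO replicate 2. Rpl39 stood at 336, 542 and 593 RPKM in DMSO and 607, 605 and 289 in Vismodegib, and Rpl39l was 0.0902% to 0.268% of it in DMSO and 0.234% to 0.797% in Vismodegib. That ratio was 1.18 higher on the log2 scale with overlapping ranges (exact permutation p = 0.2, adjusted p = 0.8). It was 1.34 with DMSO replicate 2 left out, 0.72 with DMSO replicate 3 left out and 0.70 with Vismodegib replicate 3 left out. The coding sequences of the pair are shown whole, since this paralogue, unlike the copies above, can be told from its parent by reads. They are spliced, 5′ to 3′ without the stop codon, with the 23 of 153 bases that differ in capitals, and the coordinates are of the whole gene in GRCm38.
Rpl39, chrX:37082520-37085402, minus strand: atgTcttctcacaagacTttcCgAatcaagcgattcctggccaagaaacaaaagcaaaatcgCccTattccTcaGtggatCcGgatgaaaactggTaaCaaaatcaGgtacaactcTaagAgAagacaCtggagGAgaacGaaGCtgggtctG
Rpl39l, chr16:10170226-10174911, plus strand: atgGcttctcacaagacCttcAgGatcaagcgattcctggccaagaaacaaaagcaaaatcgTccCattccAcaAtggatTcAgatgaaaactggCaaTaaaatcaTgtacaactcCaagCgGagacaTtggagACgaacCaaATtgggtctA
Their identity was 85.0%, below the 95% used to count a copy.

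In the other 6 tested pairs the ratio ranges overlapped and exact permutation p was 0.4 to 0.9, with adjusted p = 0.9 for each. Rpl36al, a retrogene of Rpl36a, stood at 471, 367 and 377 RPKM in DMSO and 464, 465 and 429 in Vismodegib, and Rpl36a at 541, 749 and 658 RPKM in DMSO and 598, 736 and 467 in Vismodegib. The retrogene was 86.9%, 49.0% and 57.3% of its parent in DMSO and 77.7%, 63.2% and 91.9% in Vismodegib, a log2 difference of 0.29. With a single library left out this difference of Rpl36al moved by over 1.5 times, to 0.12 for DMSO replicate 2, 0.16 for Vismodegib replicate 3 and 0.53 for DMSO replicate 1. Rps27 stood at 1687, 1083 and 1627 RPKM in DMSO and 1501, 1711 and 1631 in Vismodegib, and Rps27l was 4.79%, 11.2% and 5.30% of it in DMSO and 8.12%, 7.74% and 6.18% in Vismodegib. The highest share of Rps27l was thus in DMSO replicate 2, in which Rps27 was at its lowest. The log2 difference of that ratio was 0.15, and it was -0.08 without DMSO replicate 1 and 0.53 without DMSO replicate 2.

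Rpl7l1 was low, at 14.6, 21.4 and 13.7 RPKM in DMSO and 19.5, 15.1 and 15.4 in Vismodegib, while Rpl7 stood at 451, 629 and 465 RPKM in DMSO and 600.4, 749 and 358 in Vismodegib. The paralogue was 2.02% to 4.29% of its parent with a log2 difference of -0.07, which became -0.02 with DMSO replicate 2 left out and 0.23 with Vismodegib replicate 2 left out. Rpl6l is an annotated pseudogene of Rpl6. It stood at 61.5, 208 and 97.5 RPKM in DMSO and 115, 126 and 80.1 in Vismodegib, and Rpl6 stood at 176, 549 and 255 RPKM in DMSO and 301, 314 and 230.03 in Vismodegib. Rpl6l held 34.8% to 40.02% of the level of Rpl6 in the 6 libraries, the steadiest ratio of the 8 pairs, with a log2 difference of 0.02, and 0.04 without DMSO replicate 2. Rps12l1, an annotated pseudogene of Rps12, stood at 412, 453 and 484 RPKM in DMSO and 433, 542 and 226 in Vismodegib, and Rps12 at 796, 1836 and 1008 RPKM in DMSO and 899, 1143 and 814 in Vismodegib. It was 24.7% of Rps12 in DMSO replicate 2 and 27.8% in Vismodegib replicate 3, and 47.4% to 51.8% in the other 4 libraries. Its log2 difference was 0.02, and -0.32 without DMSO replicate 2. Both pseudogenes were within the 95% identity used to count a copy, so the split of reads between them and their parents is uncertain. Rps4l, an annotated transcribed pseudogene, stood at 6.48, 6.45 and 3.28 RPKM in DMSO and 7.72, 4.05 and 13.4 in Vismodegib, and its parent Rps4x, on the X chromosome, at 815, 1594 and 1464 RPKM in DMSO and 1065, 1351 and 847 in Vismodegib. Its share of Rps4x was 0.224% to 0.795% in DMSO and 0.300% to 1.58% in Vismodegib, with a log2 difference of 0.75 that became 0.73 with DMSO replicate 2 left out, 0.30 with DMSO replicate 3 left out and 0.16 with Vismodegib replicate 3 left out.

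The remaining pairs were too low to test. Rpl3l replaces Rpl3 in the ribosomes of skeletal and heart muscle. Rpl3l stood at 0.0325, 0.279 and 0.0451 RPKM in DMSO and 0.249, 0.128 and 0.189 in Vismodegib. Through its longest annotated transcript these values come to an estimated 1.68 to 15.1 reads per library. Rpl3 stood at 393, 489 and 368 RPKM in DMSO and 404, 468 and 395 in Vismodegib. Summed skeletal muscle markers, 6 of 6 matched, were 17.9, 134 and 8.79 RPKM in DMSO and 144, 96.6 and 71.6 in Vismodegib, so the 2 libraries lowest in muscle markers were also the 2 lowest in Rpl3l. The part of muscle tissue in the Rpl3l values was not tested. Rpl32l, annotated as a pseudogene, stood at 0.201, 0.0719 and 0.186 RPKM in DMSO and 0.12, 0.352 and 0.173 in Vismodegib, or 0.999 to 6.0 reads, and Rpl32 at 1041, 1819 and 1134 RPKM in DMSO and 1261, 1532 and 1185 in Vismodegib.

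**Figure D5:**
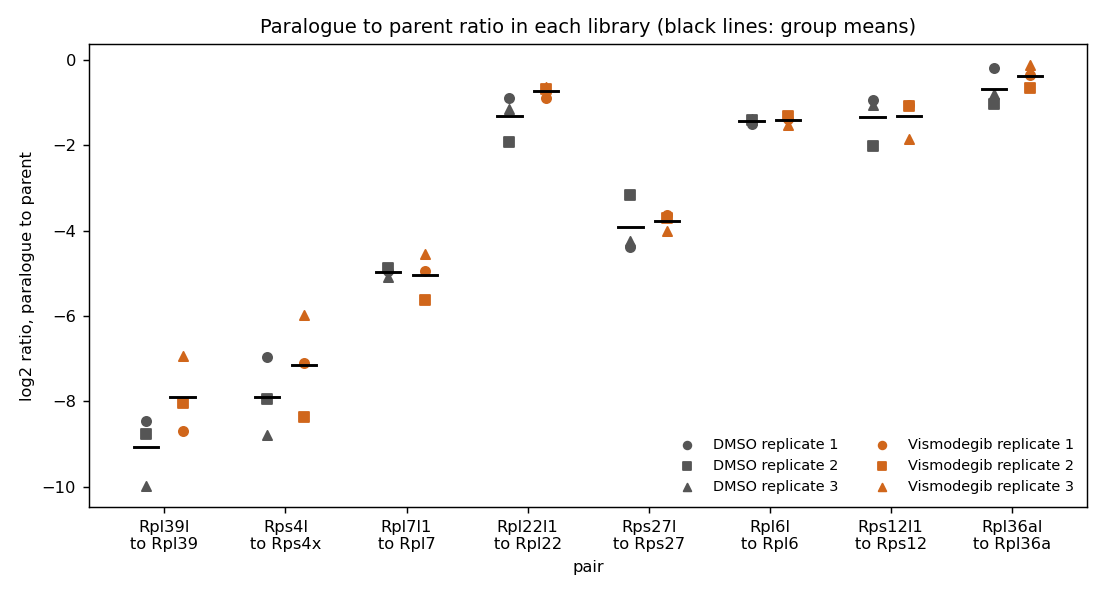
Log2 ratio of each paralogue to its parent gene in each of the 6 libraries for the 8 tested pairs, ordered by the paralogue's mean level, with DMSO in grey, Vismodegib in orange and group means as black lines. The Rpl22l1 to Rpl22 ratio is the pair without overlap between groups (26.2% to 53.6% of the parent in DMSO, 54.0% to 64.2% in Vismodegib), and Rpl6l to Rpl6 varies least.

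Genes that make or use ribosomes were read from the same fit, and 0 genes of the lists described here were called. Of the ribosomal protein genes whose symbols fall outside the rule, Rps3a1, Fau and Rack1 had log2 differences of -0.30 (SE 0.37), -0.22 (SE 0.29) and -0.11 (SE 0.37). These were 0.04, -0.16 and 0.29 without DMSO replicate 2, so Rps3a1 and Rack1 turned to the other side of 0. Fau carries a ubiquitin-like protein fused to a small-subunit protein, and Rack1 is a scaffold for kinases on the small subunit. Rps3a1 stood at 1229, 2957 and 1737 RPKM in DMSO and 1471, 1781 and 1289.8 in Vismodegib. Rack1 stood at 297, 735 and 342 RPKM in DMSO and 399.8, 445 and 335 in Vismodegib. Both were highest in DMSO replicate 2, as were most members, and in both the groups overlapped. Elongation factors and other TOP mRNAs had 7 above and 8 below 0 with a median of -0.02, and 13 above and 2 below without DMSO replicate 2. Of these, Btf3, of the complex that meets nascent chains, had a difference of 0.32 (SE 0.26) without overlap of the groups, and Eef1g, of elongation factor 1, had -0.48 (SE 0.43). These were 0.18 and -0.03 without DMSO replicate 2.

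Initiation factors had 6 of 29 above and 23 below 0, with a median of -0.06, and 18 above and 11 below without DMSO replicate 2. The smallest p values among them were on the side above 0, in the helicase Eif4a2 (0.62, SE 0.34) and in Eif2s3x, a subunit of the factor that brings initiator transfer RNA (0.65, SE 0.36). Eif4a2 had 0.53 and Eif2s3x 0.25 without DMSO replicate 2. Ribosome assembly factors had 9 above and 35 below 0 of 44 tested, with a median of -0.16, where 41.6% of all genes tested were below 0. Without DMSO replicate 2 they had 24 above and 20 below, where 35.1% of all genes were below. Las1l, which cleaves the precursor of ribosomal RNA, stood above its DMSO range in all 3 Vismodegib libraries (0.45, SE 0.28), and Gar1, of the pseudouridylation complex, stood below it (-0.37, SE 0.25). Las1l had 0.47 and Gar1 -0.21 without DMSO replicate 2. Genes of RNA polymerase I transcription had 5 above and 9 below 0 with a median of -0.16, and 6 above and 8 below without DMSO replicate 2. Among them Taf1b, of the promoter selectivity factor, stood at 1.76, 1.53 and 1.91 RPKM in DMSO and 3.54, 2.52 and 2.51 in Vismodegib (0.58, SE 0.25, limma unadjusted p = 0.0482 and adjusted p = 1.0), and Polr1e, a subunit of the polymerase, had -0.28 (SE 0.26). Taf1b had 0.51 and Polr1e -0.11 without DMSO replicate 2. Regulators of ribosomal protein genes and of their translation had 10 above and 12 below 0 of 22 tested with a median of -0.01, and 14 above and 8 below without DMSO replicate 2. The ones with the smallest p were the transcription factors Gabpa (0.39, SE 0.32) and Yy1 (0.42, SE 0.36), at 0.10 and 0.12 without DMSO replicate 2. Without DMSO replicate 1 the counts above and below 0 were 2 and 13 for elongation factors and other TOP mRNAs. They were 5 and 24 for initiation factors and 8 and 36 for assembly factors. For RNA polymerase I genes they were 4 and 10, and for regulators 7 and 15. Of all genes tested, 50.55% were below 0 in that fit. With 0 calls in each list these counts describe the libraries and were not tested as lists.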

How the data were processed

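The authors deposited 1 table of RPKM values, 23381 symbols by 6 libraries. The submitters' processing notes name Partek, HISAT2, STAR, SAMtools, cutadapt, bcl2fastq 2.17 and the mm10 build. Which tool did what, the annotation, the strand setting and the treatment of reads that match several genes are not given in these sources. RPKM depends on what all other genes contribute to a library. With the recovered totals, 83.0% to 84.7% of low values, up to 20 reads, were whole within 0.02 reads. Read numbers of single genes were estimated through the longest annotated transcript, and the length behind the deposited values is not given. They are approximate and give counting error only.

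The limma fit (version 3.58.1, R 4.3.3; lmFit, eBayes with trend, group as the only term, two-sided) used log2(RPKM + 0.5) of genes averaging 0.5 RPKM or more, and was tested on simulated data first. Paralogue ratios used exact permutation (scipy 1.17.1, pseudocount 0.05). Sequences came from GENCODE M21 and RefSeq (GRCm38), and all 86 symbols matched GENCODE.

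The members, lists and tests were chosen with earlier results of these data known. Values in every library are given for the 3 highest and 3 lowest tested members, the 4 with the smallest p in each direction, all paralogues with parents, and 12 members with known roles. Of each pathway list the 2 genes with the smallest p are named, with 3 ribosomal protein genes outside the rule; 1 further gene is not reported here. Alternatives changed the pseudocount, the filter, the scaling, the variance model, library weights, the replicate block, GC content and length, and left out each library. Summing copies was added after seeing the data.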

Additional observations from a re-analysis of the deposited data

How the results depend on the processing

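The number of genes called was 0 in the fit described above. It was 420 of 11818 with library weights, 1 with the replicate number as a block, and 0 to 19 with a library left out (19 without DMSO replicate 1). Of the ribosomal protein genes 1, Rpl39l, was called with library weights and 0 under every other alternative. The library weights were 7.28 for DMSO replicate 3 and 0.316 to 2.34 for the others. The number of members below 0 was 52; it was 27 with library weights and ran from 12 (without DMSO replicate 2) to 62 (without DMSO replicate 1) with a library left out, at 34 without Vismodegib replicate 3. Their median difference ran from -0.23 (without DMSO replicate 1) to 0.19 (without DMSO replicate 2). Rps20, at -0.41, ran from -0.955 without DMSO replicate 1 to 0.092 without DMSO replicate 2. The cause was not tested. Rps20 and 7 other members were followed here because they had the smallest p in these same data. Those 7 kept their direction under all 18 alternatives, though Rps6 and Rps2 came to -0.04 without DMSO replicate 2. Some members described for other reasons, among them Rpl11, Rps19 and Rpl10a, changed sign when that library was left out. In the paralogue ratios, Rpl7l1, Rpl6l, Rps12l1 and Rps27l changed sign with 1 library left out, none past a threshold. The replicate numbers were not taken as pairs. The correlations of same-numbered libraries' deviations were 0.003, 0.038 and -0.305. With 3 libraries per group these cannot show whether the samples were paired. No member was called with the block, as without it. With the block 345 genes had a limma unadjusted p under 0.05, against 266 without it. The own rows of Rpl39l, Rpl21, Rpl3l and Rpl32l rest on an estimated 108 reads or fewer in each library, which limits the precision of their values.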
